A study of Drosophila melanogaster with 8 samples.

Results

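ND6 and Cyt-b are a pair of neighbouring messenger RNAs of the fly mitochondrial genome, transcribed from its plus strand. They were taken by FlyBase identifier (FBgn0013685 for ND6, FBgn0013678 for Cyt-b), and both were present in the deposited table, as 2 of 13970 genes and 2 of the 11 mitochondrial mRNAs with values. Their level was described in J2 RNA of 8 libraries, together with their mutual ratio and their ratio to CoI (FBgn0013674), the mRNA of the catalytic subunit of cytochrome c oxidase. The J2 antibody recognises the double helix of RNA and not a particular sequence.

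The libraries came from whole Drosophila melanogaster larvae in the wDah background at 4 days after egg laying. Control larvae are labelled with no mutant allele (;;), whereas dmpnpaseKO larvae (;;dmpnpase-/dmpnpase-) are homozygous for a CRISPR/Cas9 frame shift in CG11337, the fly gene of polynucleotide phosphorylase (PNPase). The knockout is larval lethal. The cytoplasm (here called cytosol) and mitochondria were separated by differential centrifugation, and RNA of each fraction was incubated with J2 before sequencing. Each of the 4 groups (control cytosol, control mitochondria, dmpnpaseKO cytosol and dmpnpaseKO mitochondria) has 2 libraries. The labels do not say that the 2 are separate cultures, so the tests measure the spread between these libraries, which may be technical.

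Mitochondrial DNA is copied from both strands into long polycistronic RNAs, which are then cut into single transcripts, in most places at the tRNAs that lie between the genes. RNA from the strand opposite a gene can pair with its mRNA to form double-stranded RNA. PNPase is an exoribonuclease that, with the helicase SUV3, degrades mitochondrial RNA. ND6 encodes a membrane subunit of respiratory complex I (NADH dehydrogenase), and Cyt-b encodes cytochrome b, the only subunit of complex III that is made inside mitochondria.

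In the BDGP6 assembly, ND6 lies on the plus strand of the mitochondrial genome from 9971 to 10495 and is 525 nt long. Cyt-b follows on the same strand from 10499 to 11635, with a length of 1137 nt. Only 3 nt separate the 2 genes, and no tRNA is annotated between them. On the other side of ND6 is the tRNA for proline, on the minus strand 2 nt away, and Cyt-b is followed after 2 nt by the tRNA for serine (TGA anticodon) on the plus strand. The next mRNA, ND1, is on the minus strand. The values used here give 1 number per gene, in which RNA of the sense and antisense strand cannot be told apart.

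Values were deposited as TPM, a share of each library corrected for transcript length that sums to the same total in every library. Read numbers are unknown, so the values carry no estimate of counting error. Genes above 0 TPM ranged from 61 to 4736 in the cytosolic libraries and from 4846 to 11051 in the mitochondrial ones. The lowest number was in dmpnpaseKO cytosol replicate 2, in which both ND6 and Cyt-b had high values. The summed TPM of 8 larval serum and cuticle genes, used to check the larval label, ranged from 5.55 to 140.0 in the control libraries and from 0.297 to 25.1 in the dmpnpaseKO libraries. In the mitochondrial fraction 8 of 8 fell in dmpnpaseKO larvae (limma, median log2 difference -2.98), where 81.3% of all genes tested were called in either direction and their median was 2.23. In the cytosol 0 of 8 passed the threshold (median -1.29), as for 0% of all genes tested (median 0.30). In dmpnpaseKO cytosol replicate 2, 7 of the 8 were at 0. Apart from Lsp1gamma, these genes reach the mean of 1 TPM needed for testing only through control libraries, which favours a fall. These markers move with genotype, and their part in the changes of ND6 and Cyt-b was not tested.

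ND6 was the scarcest or nearly the scarcest mitochondrial mRNA in most libraries. In controls, replicates 1 and 2 had 1.19 and 11.6 TPM (cytosol) and 10.1 and 60.7 TPM (mitochondria). With PNPase lost, they had 487 and 1219 TPM (cytosol) and 115 and 2399 TPM (mitochondria). Its lowest value was thus in the control cytosol and its highest in dmpnpaseKO mitochondria. Among the 11 mitochondrial mRNAs it ranked 11 in 4 libraries, 10 in 3 and 5 in dmpnpaseKO cytosol replicate 2, where it made up 6.05% of all mitochondrial mRNA. In the other 7 libraries this share was between 0.149% (control mitochondria replicate 1) and 2.29% (dmpnpaseKO cytosol replicate 1).

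Cyt-b was among the more abundant mitochondrial mRNAs. Control replicates 1 and 2 had 12.8 and 51.8 TPM (cytosol) and 784 and 1517 TPM (mitochondria). Those without PNPase had 3286 and 3343 TPM (cytosol) and 5150 and 17381 TPM (mitochondria). The 4 groups did not overlap with each other in these TPM. Over all 475 genes tested, dmpnpaseKO lay above control without overlap for 8.63% (cytosol) and 91.4% (mitochondria), on scaled TPM. Mitochondria lay above cytosol for 64% (control) and 86.7% (dmpnpaseKO). The share of genes with all 4 groups separate was not counted. Its rank among the 11 mRNAs was between 2 and 6, and its share of mitochondrial mRNA between 8.18% (control mitochondria replicate 2) and 16.6% (dmpnpaseKO cytosol replicate 2). Both dmpnpaseKO cytosol libraries had it in second place, behind CoI.

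**Figure D1:**
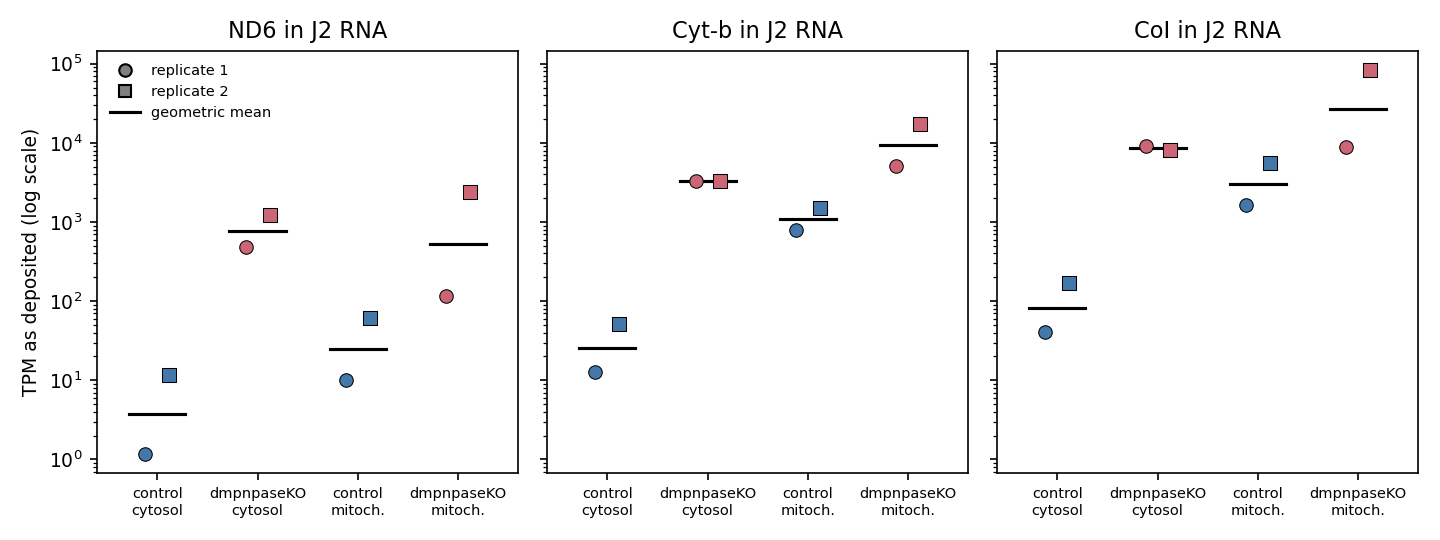
TPM as deposited (log axis) of ND6, Cyt-b and CoI in the 4 groups. Circles and squares are replicates 1 and 2, bars their geometric mean, blue is control and red dmpnpaseKO. ND6 in control cytosol replicate 1 is the lowest point at 1.19 TPM, and the 4 groups of Cyt-b are separate from each other while ND6 overlaps between fractions.

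For comparison between libraries, TPM were scaled on 8 nuclear rRNA pseudogenes that the methods name and then compared as log2(scaled TPM + 1). Changes of genes near 0 come out too small on this scale. All rRNA pseudogenes together made up from 42.7% of TPM (control cytosol replicate 2) to 96.6% (control mitochondria replicate 1). The scaling factors of these libraries were 0.55 and 1.24, the lowest and highest. From control to dmpnpaseKO in the cytosol, the 8 pseudogenes had log2 differences between -1.08 (18SrRNA-Psi:CR41602) and 1.42 (28SrRNA-Psi:CR45851). The mean log2 level of ND6 was lowest in the control cytosol (2.80 ± 2.36, SD, n = 2), followed by 4.61 ± 2.01 (control mitochondria), 9.01 ± 3.33 (dmpnpaseKO mitochondria) and 9.44 ± 0.87 (dmpnpaseKO cytosol). The groups therefore fell into a control pair and a dmpnpaseKO pair, and within each pair the fractions overlapped. The mean log2 level of Cyt-b was 5.18 ± 1.96 (control cytosol), 9.98 ± 0.95 (control mitochondria), 11.55 ± 0.05 (dmpnpaseKO cytosol) and 13.17 ± 1.49 (dmpnpaseKO mitochondria). No input RNA without J2 was used here, so more of an RNA, more of it paired and better recovery by J2 cannot be told apart, and nor can fewer mitochondria and less RNA in each. The step from control mitochondria to the dmpnpaseKO cytosol mixes genotype and fraction and was not tested.

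Loss of PNPase was compared with control in each fraction, which describes the level of both mRNAs in J2 RNA there. In the cytosol both mRNAs were higher in both dmpnpaseKO libraries than in both controls, with log2 differences of 6.64 for ND6 (limma standard error 2.46) and 6.36 for Cyt-b (1.94). Among the 475 genes tested, 8.63% showed such a separation upward. The 2 mRNAs ranked 2 and 3 of all 475 genes by the size of this difference, behind ND2. The 9 other mitochondrial mRNAs had a median of 4.27, between 0.72 for ND3 and 6.76 for ND2, and the median of all genes tested was 0.30. Neither mRNA passed the threshold after Benjamini-Hochberg adjustment over all genes (limma, adjusted p = 0.292 for each, unadjusted p = 0.0164 for ND6 and 0.00513 for Cyt-b). No gene did, 0% of those tested, while 47 genes had an unadjusted p under 0.05. On unscaled TPM both passed (limma, adjusted p = 0.0343 for ND6 and 0.022 for Cyt-b), among 31 of the 475 genes called there. With a pseudocount of 0.1 Cyt-b passed (0.0472). Without dmpnpaseKO cytosol replicate 2, the library with 61 genes above 0, the differences were 6.03 for ND6 and 6.4 for Cyt-b (adjusted p = 0.131 and 0.0741 from limma).

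In the mitochondrial fraction the dmpnpaseKO values of both mRNAs again lay above both control values. The log2 difference was 4.40 for ND6 (limma standard error 2.46) and 3.19 for Cyt-b (1.94). ND6 had the highest difference of all 475 genes, and Cyt-b ranked 7 among the 11 mitochondrial mRNAs. The 9 others had a median of 3.24, and all genes tested had a median of 2.23. Both dmpnpaseKO libraries were above both controls for 91.4% of the 475 genes tested, and 81.3% passed the threshold in either direction. ND6 (limma, adjusted p = 0.111) and Cyt-b (0.141) were not among those that passed. A gene can reach the mean of 1 TPM needed for testing through dmpnpaseKO mitochondria alone, which can raise both shares. Fitted to the mitochondrial libraries alone, both passed (0.0342 and 0.00817 from limma), but 428 of the 475 genes were called in that fit. Both also passed without the intensity trend (0.0468 and 0.0241). Cyt-b also passed when control cytosol replicate 1 was left out (0.0485).

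The change in mitochondria depended on the scaling. When the sum over nuclear-encoded genes was made equal in all libraries, the difference was 1.34 for ND6 and 0.06 for Cyt-b, against a median of 0.39 over all genes tested. With median-of-ratios scaling it was 2.18 for ND6 and 0.90 for Cyt-b, against a median of 0.95. In the cytosol these scalings gave 6.27 and 4.11 for ND6 and 5.67 and 3.48 for Cyt-b, against medians of 0.33 and 0.02. ND6 thus stayed above the median of all genes in both fractions under these scalings, and Cyt-b did so in the cytosol but not in mitochondria.

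**Figure D2:**
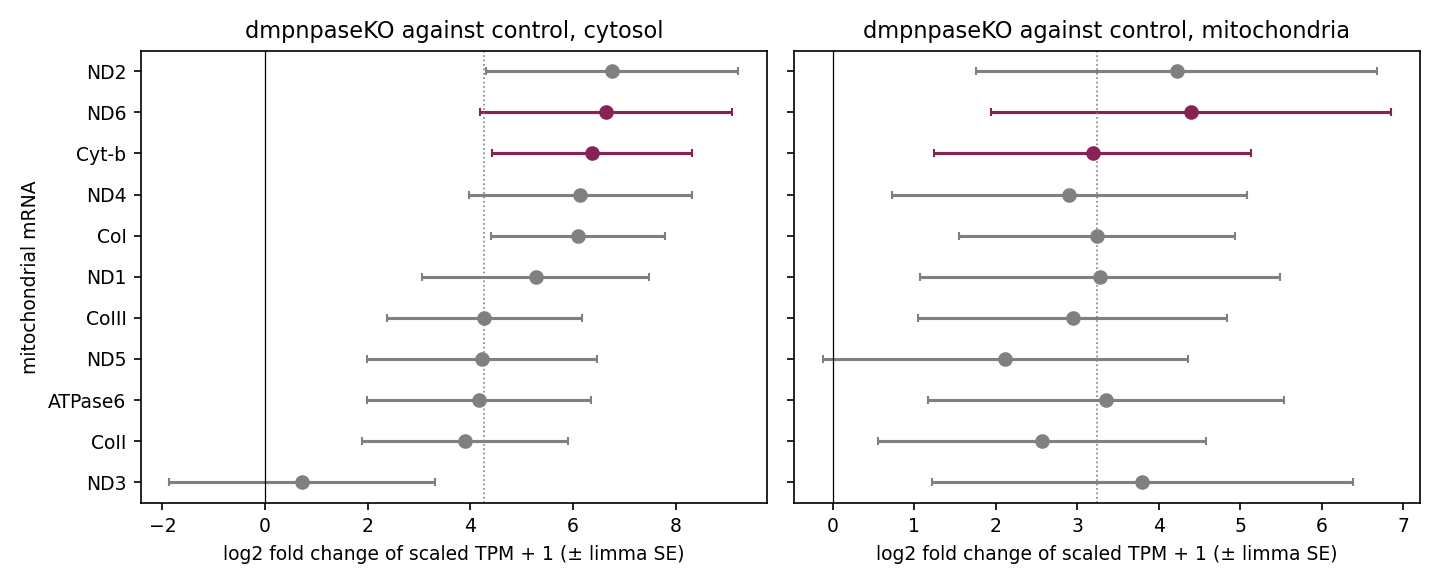
Log2 fold change of scaled TPM + 1 from control to dmpnpaseKO for the 11 mitochondrial mRNAs, in the cytosol (left) and in mitochondria (right), with the limma standard error as bars. ND6 and Cyt-b are in purple, the dotted line is the median of the other 9 mRNAs (4.27 and 3.24), and the mRNAs are in the order of the cytosolic change in both panels.

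The difference of the dmpnpaseKO effect between the fractions was -2.24 for ND6 and -3.17 for Cyt-b on the log2 scale (mitochondria minus cytosol), with limma standard errors of 3.47 and 2.75. It was not detectable for either (adjusted p = 0.564 and 0.308 from limma), whereas 31.2% of all genes tested passed (148 genes, between 0 and 390 over the alternative settings). For ND6 it was 0.11 when dmpnpaseKO mitochondria replicate 1 was left out.

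The fractions were then compared within each genotype. Mitochondrial rRNA made up 22.8% and 57.1% of TPM in control cytosol, against 2.62% and 24.3% in control mitochondria. In dmpnpaseKO larvae it made up 13.8% and 8.50% (cytosol) and 3.24% and 9.01% (mitochondria). On scaled TPM, lrRNA and srRNA were lower in control mitochondria than in control cytosol, without passing the threshold (limma, adjusted p = 0.329 and 0.338). The part of this in the fraction differences of ND6 and Cyt-b was not tested. In control larvae, Cyt-b was higher in both mitochondrial than in both cytosolic libraries, by 4.80 on the log2 scale (limma standard error 1.94, adjusted p = 0.394, unadjusted p = 0.026). Both mitochondrial libraries were above both cytosolic ones for 64% of genes tested, and 1.05% passed the threshold. ND6 overlapped between the fractions, with a difference of 1.81 (2.46, adjusted p = 0.807), the smallest of the 11 mitochondrial mRNAs. The 9 others were between 3.81 and 4.86 higher in mitochondria. In dmpnpaseKO larvae, Cyt-b was above both cytosolic values in both mitochondrial libraries, as were 86.7% of genes tested, with a difference of 1.63 (1.94, adjusted p = 0.444). ND6 had a difference of -0.43 (2.46, adjusted p = 0.885 from limma), again the lowest of the 11 mRNAs, and its libraries overlapped. 81.9% of genes passed in this comparison. The differences of dmpnpaseKO larvae turned with single choices. That of Cyt-b was -0.92 under the equal sum of nuclear-encoded genes. That of ND6 was 0.18 without dmpnpaseKO cytosol replicate 2 and 1.93 without dmpnpaseKO mitochondria replicate 1.

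The ratio of 2 genes in the same library does not depend on any scaling factor. Cytosolic ND6 reached 9.27% and 22.4% of the TPM of its neighbour Cyt-b (control) and 14.8% and 36.5% (dmpnpaseKO). Mitochondrial ND6 reached only 1.28% and 4.00% (control) and 2.24% and 13.8% (dmpnpaseKO). In both genotypes, both cytosolic libraries had a higher ratio than both mitochondrial ones. The ratio was 6.36-fold lower in mitochondria than in the cytosol in controls and 4.18-fold lower in dmpnpaseKO larvae, or 5.16-fold over both. On the log2 scale this is a difference of -2.37 between the fractions, with the same direction in 8 of 8 pairs of libraries of the same genotype. The exact two-sided permutation test, with labels exchanged within each genotype, gave p = 0.0556, which is the smallest p that its 36 arrangements allow (0.167 after Benjamini-Hochberg adjustment over the 6 ratio tests made). Without dmpnpaseKO cytosol replicate 2 the difference was -2.04.

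**Figure D3:**
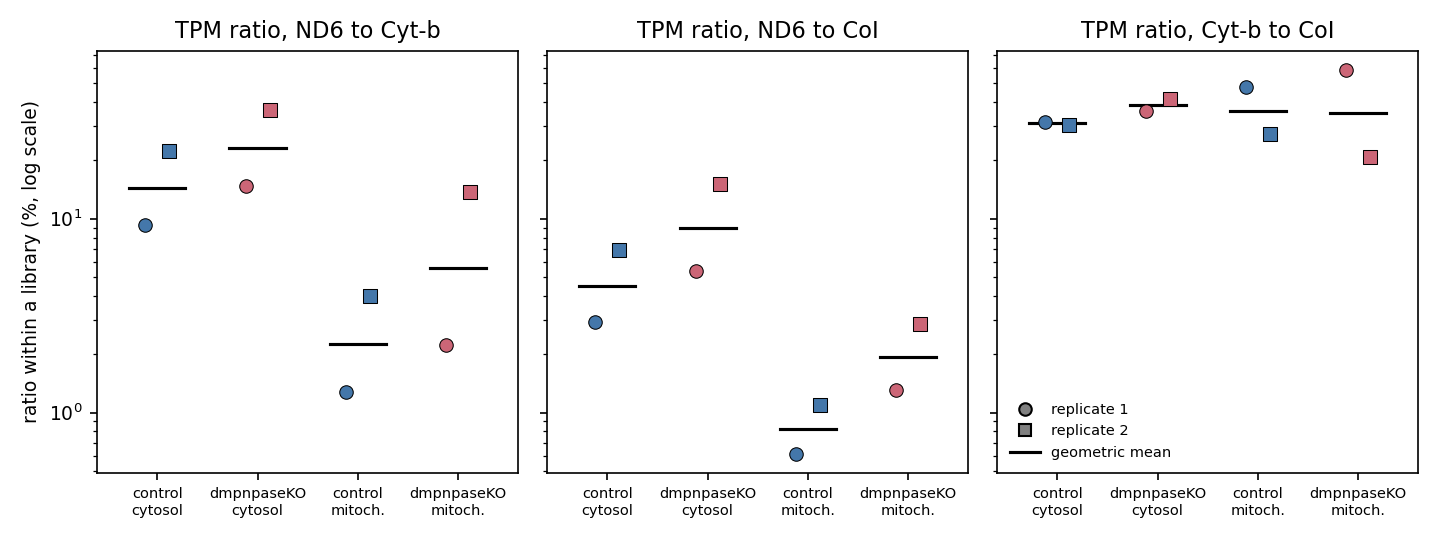
TPM ratio within each library, in percent on a log axis, for ND6 to Cyt-b, ND6 to CoI and Cyt-b to CoI. Symbols and colours are as for the levels, and bars are geometric means. ND6 is at 14.4% and 23.2% of Cyt-b in the cytosol and at 2.27% and 5.56% in mitochondria (geometric means, control and dmpnpaseKO), while Cyt-b stays between 20.8% and 58.6% of CoI.

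Between genotypes the ratio of ND6 to Cyt-b overlapped in both fractions. With PNPase lost it was 1.61-fold higher (cytosol) and 2.45-fold higher (mitochondria), a mean log2 difference of 0.99 (exact permutation within fractions, two-sided p = 0.333). With a pseudocount of 10 the mean log2 difference was -0.0012. Replicates of the same group differed by more than the genotypes did. Replicate 2 had the higher ratio in all 4 groups, by 2.42-fold and 3.12-fold in control cytosol and mitochondria and by 2.46-fold and 6.16-fold in dmpnpaseKO cytosol and mitochondria. The SD of the log2 ratio was between 0.90 and 1.86 in the groups.

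Relative to CoI, cytosolic ND6 had 2.92% and 6.86% (control) and 5.35% and 15.1% (dmpnpaseKO). Mitochondrial ND6 had 0.614% and 1.10% (control) and 1.31% and 2.88% (dmpnpaseKO). Both cytosolic libraries were again above both mitochondrial ones in each genotype. The ratio was 5.02-fold lower in mitochondria (log2 difference -2.33, 8 of 8 pairs of libraries), with the same exact permutation p of 0.0556, and 0.167 adjusted. By genotype, the 2 dmpnpaseKO libraries were above both controls in mitochondria, where the ratio was 2.37-fold higher, but they overlapped in the cytosol, where it was 2.01-fold higher. With 2 libraries against 2 in 1 fraction, the exact two-sided permutation p cannot be below 0.333. The mean log2 difference between genotypes was 1.12, in the same direction in 7 of 8 pairs (exact permutation p = 0.167, 0.333 adjusted). With a pseudocount of 10 it was -0.024.

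CoI was the most abundant mitochondrial mRNA in 6 of the 8 libraries, and CoIII took its place in replicate 1 of control and of dmpnpaseKO mitochondria. Cyt-b followed CoI closely. In the cytosol it was at 31.5% and 30.6% of CoI (control) and 36.1% and 41.4% (dmpnpaseKO). Mitochondrial libraries had it at 47.8% and 27.4% (control) and 58.6% and 20.8% (dmpnpaseKO). Over the 8 libraries this ratio varied 2.81-fold, whereas ND6 to CoI varied 24.6-fold and ND6 to Cyt-b 28.4-fold. Both extremes of Cyt-b to CoI were in dmpnpaseKO mitochondria, in replicates of the same group. No difference was detectable by fraction (log2 difference 0.04, exact permutation p = 1) or by genotype (0.13, p = 0.667). In the cytosol the 2 dmpnpaseKO libraries were both above the 2 controls, by 1.24-fold, while in mitochondria the genotypes overlapped. Such a separation of 2 libraries from 2 has an exact two-sided permutation p of 0.333 at the smallest.

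To place these ratios, the same comparison was made for all pairs of the 10 mitochondrial mRNAs that are above 0 TPM in every library, a survey chosen after the ratios had been seen and given as a description. Of the 45 pairs, 9 had no overlap between the fractions in either genotype (20%), and all 9 were the pairs that contain ND6. ND6 was lower in mitochondria relative to each of the 9 partners, with log2 differences between 1.80 in size against ND2 and 3.31 against ATPase6. These 9 pairs share ND6 and are not independent. By genotype, 5 of the 45 pairs had no overlap in either fraction, of which 1 contained ND6 (with ND5) and 0 contained Cyt-b. Ranked by the SD of the log2 ratio over the 8 libraries, from the steadiest, Cyt-b and CoI came 3 of 45 (SD 0.47), after ATPase6 with CoIII and CoI with ND4. ND6 with Cyt-b came 37 (SD 1.68), although their genes are only 3 nt apart.

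ND6 is the second shortest of the 11 mRNAs. Its log2 ratio to CoI differed between mitochondria and cytosol by -2.45 in controls and -2.21 in dmpnpaseKO larvae. The next longer mRNAs are ATPase6 (675 nt), CoII (685 nt) and CoIII (789 nt). Their group means were near 0 in controls, between -0.05 for CoII and 0.10 for CoIII. In dmpnpaseKO larvae their means were higher in mitochondria relative to CoI, by 1.96, 1.46 and 1.61. Replicates behind these means differed widely. CoIII had 10794.5 and 11283 TPM in dmpnpaseKO mitochondria, beside CoI at 8788 and 83383. In control mitochondria CoIII had 1763 and 1284 TPM, beside CoI at 1639 and 5541. By fraction over both genotypes, the exact permutation p was 0.389 (ATPase6), 0.556 (CoII) and 0.444 (CoIII), against 0.0556 for ND6. ND3, which is shorter still at 354 nt, had -0.15 in controls and 1.91 in dmpnpaseKO larvae. The latter is without replicate 2 of the cytosol, where ND3 is listed at 0. In dmpnpaseKO mitochondria ND3 had 2169 and 2243 TPM, beside the same unlike CoI values. ND2 (1024 nt) was nearest to ND6, with -0.58 and -0.49. The part of transcript length in the ratios of ND6 was not tested. Depth may differ between the fractions. The genes above 0 TPM were fewer in each cytosolic than in each mitochondrial library, and the part of depth in the ratios of ND6 was not tested.

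**Figure D4:**
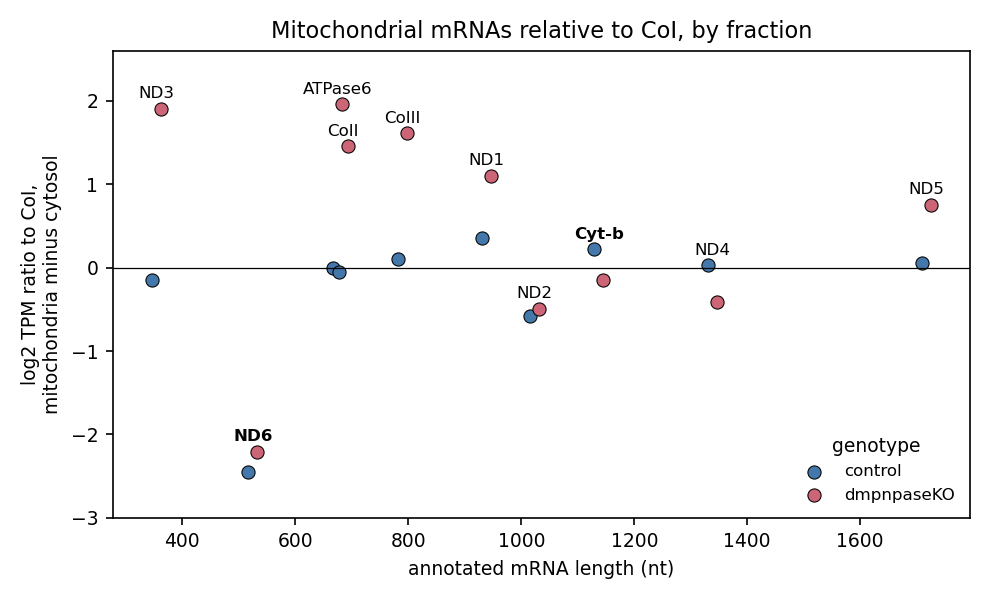
Log2 TPM ratio to CoI in mitochondria minus that in the cytosol (group means of 2 libraries), against the annotated length in nt, for control (blue) and dmpnpaseKO (red). ND6 at 525 nt is the lowest in both genotypes (-2.45 and -2.21), Cyt-b is near 0 (0.22 and -0.15), and the dmpnpaseKO point of ND3 uses only replicate 1 of the cytosol.

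Over the 8 libraries, the genes with the log2 level most like that of ND6 were ND2 (Pearson r = 0.96), ND4 (0.91) and CoI (0.90), out of all 475 genes tested. Cyt-b came next (0.88). For Cyt-b the nearest were CoI (0.99), ND1 (0.98) and ND4 (0.98), and ND6 came at rank 9. All are mitochondrial mRNAs measured in the same 8 libraries with the same scaling factors, so any shift of a whole library is part of these values.

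Nuclear-encoded subunits of complex III, the partners of cytochrome b, were far lower. Of 9 such genes, 7 reached the mean of 1 TPM needed for testing, and UQCR-C1, a core subunit, was the highest with a mean of 1.99 TPM. In mitochondria 7 of 7 were called higher in dmpnpaseKO larvae, with a median log2 difference of 1.90. Of all genes tested 81.3% were called, with a median of 2.23. These 7 were at 0.557 TPM or less in controls and highest in dmpnpaseKO mitochondria replicate 1, from 4.40 (ox) to 9.12 TPM (UQCR-C1). The filter on the mean thus favours genes that are high in that group, and the count is no separate evidence of a rise. In the cytosol 0 of 7 passed (median 0.28). Of 10 genes of mitochondrial RNA turnover and transcription that have values, among them PNPase itself, Suv3, the poly(A) polymerase MTPAP and the transcription terminator mTTF, 0 reached the mean for testing, and the highest, TFAM, which packages mitochondrial DNA, had a mean of 0.144 TPM. PNPase was above 0 in 2 libraries only, so its values do not check the genotype labels.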

How the data were processed

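RNA bound by J2 was sequenced in 8 libraries, from larvae of either genotype and either fraction. The authors mapped the paired-end reads with salmon 0.11.3 to the BDGP6 cDNA set and deposited TPM values per gene. Replicates were not pooled, and the number of value columns that matched no library was 0. The step from transcripts to genes is not given in the sources used here. TPM carry no depth and were not corrected for the recovery by J2.

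From the TPM, each library was divided by its mean over the 8 named rRNA pseudogenes and the log2 of scaled TPM + 1 was taken. The 475 genes that reached a mean TPM of 1 were fitted with limma 3.58.1 in R 4.3.3 (lmFit, eBayes with trend, 4 group means, Benjamini-Hochberg over all 475, threshold 0.05). Ratios used unscaled TPM and exact permutation tests in Python 3.11.15. Both procedures were tested on simulated data. Groups, replicate numbers and columns were taken from the labels. Symbols were matched for 13746 of 13970 identifiers, and positions come from the Ensembl annotation of BDGP6. Genes, lists and tests were chosen with earlier results of these data known. Named are ND6, Cyt-b, CoI, the other mitochondrial mRNAs, and the 3 genes most correlated with each of ND6 and Cyt-b. Alternatives were other scalings, pseudocounts and filters, no trend, smaller fits, a replicate block and each library left out. ATPase8, ND4L, bsf and SLIRP1 were not analysed here. No sequences are shown.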

Additional observations from a re-analysis of the deposited data

How the results depend on the processing

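Of 258 alternative values of the 16 results, 236 kept their direction and side of the threshold, 8 newly passed it and 14 changed sign. In the cytosol, ND6 (6.64) newly passed on unscaled TPM (7.20), and Cyt-b (6.36) on unscaled TPM (6.94) and with pseudocount 0.1 (6.42). In mitochondria, ND6 (4.40) and Cyt-b (3.19) passed, with the same values, without the trend and with only the groups compared, and Cyt-b also without control cytosol replicate 1. Scaling to the nuclear-encoded sum turned the Cyt-b fraction difference of dmpnpaseKO larvae from 1.63 to -0.92. A pseudocount of 10 in the ratios turned the genotype differences of ND6 to Cyt-b (0.99 to -0.0012), ND6 to CoI (1.12 to -0.024) and Cyt-b to CoI (0.13 to -0.023), and the fraction difference of Cyt-b to CoI (0.04 to -0.11). The last was -0.33 with the other mRNAs in place of CoI. The causes were not tested.

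Leaving out 1 library gave, by genotype, 4.98 to 8.31 for ND6 and 4.98 to 7.75 for Cyt-b in the cytosol, and 2.04 to 6.76 and 2.14 to 4.24 in mitochondria. The effect difference between fractions ranged from -4.60 to 0.11 for ND6 and from -4.56 to -1.79 for Cyt-b. The fraction difference ranged from 0.15 to 3.48 and from 3.41 to 6.19 in controls, and from -2.79 to 1.93 and from 0.57 to 2.68 in dmpnpaseKO larvae. The ratio of ND6 to Cyt-b by fraction stayed between -3.02 and -1.71, and ND6 to CoI between -2.70 and -1.96. Cyt-b to CoI ranged from -0.34 to 0.41 by fraction (-0.0114, -0.164 and -0.335 for the libraries that turned it) and from -0.24 to 0.51 by genotype (-0.0686 and -0.240). ND6 to Cyt-b by genotype ranged from 0.34 to 1.65 and ND6 to CoI from 0.75 to 1.50.

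Counts over all genes varied too. In the cytosol 0 genes were called, against 0 to 31 over the alternatives at the same filter, and 386 were called in mitochondria, against 10 to 428. The effect difference called 148 (0 to 390), and the fraction comparisons called 5 in controls (0 to 15) and 389 in dmpnpaseKO larvae (4 to 423). Without the filter on low values the mitochondrial comparison called 5525 of 11606 genes.

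Libraries share only a replicate number, with no stated pairing. Deviations of same-numbered libraries correlated at -0.01 between the cytosolic groups, 0.68 between the mitochondrial groups, 0.35 between the fractions of controls and 0.02 between those of dmpnpaseKO larvae. Across genotype and fraction they correlated at 0.41 (control cytosol with dmpnpaseKO mitochondria) and 0.04 (control mitochondria with dmpnpaseKO cytosol). The replicate block changed no call for ND6 or Cyt-b (log2 differences 6.64 and 6.36 in the cytosol, adjusted p = 0.127 from limma). With it ND6 to Cyt-b (0.99) and ND6 to CoI (1.12) by genotype had an exact permutation p of 0.125, the smallest it allows, as did both by fraction, and 239 genes were called for the effect difference.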
